A study of Mus musculus with 95 samples.

Results

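In each mouse of this study RNA was read both from astrocyte ribosomes and from the whole tissue punch, and the change of the ratio between these fractions with alcohol dependence is described here. The mice were those of batches I, J, K and L with both libraries: 16 dependent mice (8 female, 8 male) and 15 ethanol-naive mice (8 female, 7 male), which hold 62 of the 95 libraries of the series. Another 13 non-dependent mice stood in the same fit, so that 44 of the 46 mice with both libraries were used. Membership followed the labels alone and used no measured value.

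All mice carried the transgene Tg(Aldh1l1-EGFP/Rpl10a)JD130Htz on a background of B6 and FVB, in which regulatory sequence of the astrocyte gene Aldh1l1 drives a fluorescent tag on ribosomal protein Rpl10a. Dependent mice went through CIE-2BC, which combines chronic intermittent ethanol (CIE) with 2-bottle choice drinking (2BC), with 5 rounds of CIE. Non-dependent mice had 2BC without CIE, and naive mice had no ethanol. The tissue was the nucleus accumbens, a part of the ventral striatum involved in reward. Precipitating the tagged ribosomes gave the IP library (translating ribosome affinity purification, TRAP), and an aliquot taken before that step gave the input library.

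Astrocytes clear glutamate and GABA from the space around synapses, buffer potassium, supply glutathione precursors to neurons, and can take up interferon-response and antigen-presenting programs. In bulk tissue a transcript is the sum over all cells, so a response of astrocytes alone is diluted by the same transcript in other cells. A gene whose IP changed more than its input is called astrocyte-weighted below, and one whose input changed more is called tissue-weighted. In these bulk libraries, fewer cells of a type and less RNA per cell cannot be told apart.

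The ratio of a mouse is its log2 CPM (counts scaled to library size) in IP minus that in input. The shift of a gene is the difference of that ratio between dependent and naive mice, from a paired negative binomial fit (edgeR quasi-likelihood test) with a term for each mouse and with batch and sex effects on the ratio. Shifts and fold changes are on the log2 scale with their standard error, and a gene was called at a Benjamini-Hochberg adjusted p at or under 0.05 over all genes tested. IP libraries held 14314236 to 27146790 counts and input libraries 12803108 to 23948193. Naive mice were in batches J (4), K (4) and L (7) and dependent mice in I (7), J (4), K (2, both male) and L (3), so batch I bears on the comparison only through its non-dependent mice. Mitochondrially encoded transcripts made up 6.85% to 17.9% of input counts and 0.486% to 2.17% of IP counts.

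The fractions were checked on defining markers. Aldh1l1 was enriched in the IP of all 31 mice, with log2 ratios from 2.58 to 3.66 (median 3.18) in naive mice and from 2.50 to 3.64 (median 2.96) in dependent mice. Snap25, a neuronal vesicle fusion protein, was depleted, with ratios from -1.68 to -1.07 and from -1.96 to -0.91, but its median level in IP was still 624 CPM in naive and 615 CPM in dependent mice. The IP was enriched for astrocyte RNA and still held RNA of other cells.

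Of 19576 genes tested 84 had a shift (0.429% called), 42 with a higher ratio in dependent mice and 42 with a lower one (0.215% each). Among the higher ratios were those of chaperones of the endoplasmic reticulum (Calr, Hsp90b1, Pdia3), glutathione and thioredoxin enzymes (Gclc, Gsr, Txnrd1), interferon and antigen presentation genes (Psmb9, Bst2, Cd74, H2-Ab1), the transcription factor Cebpb and the transporter genes Slc38a2, Slc38a1 and Slc6a6. Among the lower ratios were those of receptors (Gabbr2, Gabbr1, Grm3, Adcyap1r1), tubulins (Tuba1a, Tubb2a, Tubb2b), the thyroid hormone binding protein Crym, the fatty acid binding protein Fabp5 and the transporter gene Slc43a2. Both directions also held genes of other functions and predicted genes. The shifts of called genes ran from 0.27 to 2.29 (median 0.58) and from -0.31 to -2.87 (median -0.54). The median over all tested genes was -0.02, with 46.8% of shifts above 0. At an unadjusted p under 0.05 there were 1681 genes.

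In most of the 84 genes, which were called for a difference between the fractions, IP moved more than input. By the size of the change in each fraction 38 were astrocyte-weighted rises, 31 astrocyte-weighted falls, 11 tissue-weighted rises and 4 tissue-weighted falls. Within fractions, 5.5% of the 17721 genes tested in IP were called (3.21% higher, 2.29% lower) and 2.29% of the 18171 tested in input (1.4% higher, 0.886% lower). Of the 42 genes with a higher ratio, 38 rose in IP, 6 of them also rose in input, 2 fell in input and 2 passed neither test. Of the 42 with a lower ratio, 27 fell and 1 rose in IP, 6 rose and 1 fell in input, and 9 passed neither test. By sign alone, IP and input moved in opposite directions in 9 of the genes with a higher ratio and in 26 of those with a lower one. The shares of all tested genes with a larger change in IP or with opposite signs were not counted. Whether the called genes differ from other genes in this was therefore not tested.

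**Figure D1:**
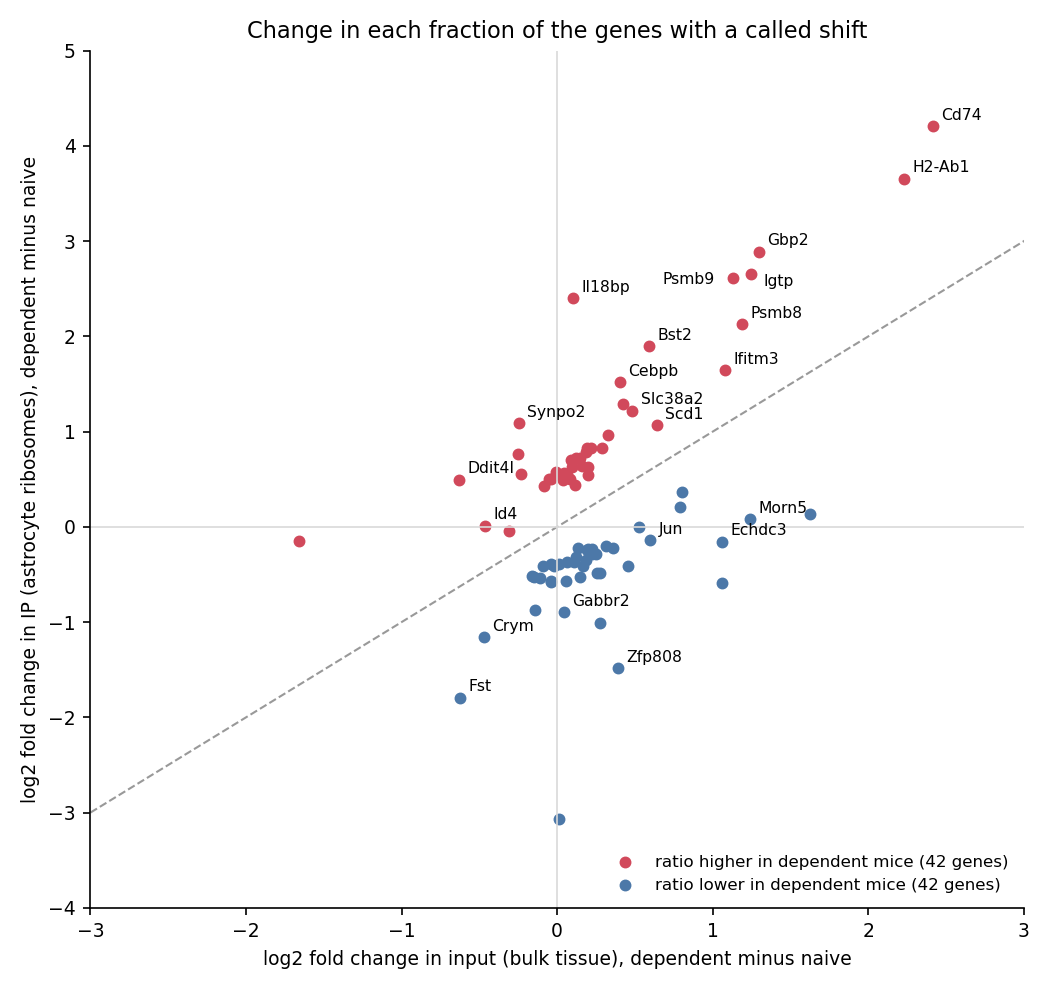
Log2 fold change between dependent and naive mice in input (horizontal axis) and in IP (vertical axis) for the 84 genes with a called shift, 1 point per gene, with equal change on the diagonal. Genes with a higher ratio in dependent mice (42) lie above the diagonal and genes with a lower ratio (42) below it.

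The ratios of dependent and naive mice did not overlap for 3 of the 19576 genes (0.0153%): Cebpb, Ddit4l and Crym. Each of these also passed the test.

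Cebpb encodes C/EBP beta, a transcription factor of inflammatory and stress responses (GRCm38; ENSMUSG00000056501, chromosome 2, 167688915 to 167690418, plus strand). Its IP level ran from 5.37 through 11.5 to 17.4 CPM (lowest, median, highest) in naive mice and from 18.6 through 35.1 to 95.9 CPM in dependent mice, and its input level from 7.48 through 9.77 to 14.4 CPM and from 8.5 through 15.8 to 21 CPM. In IP every dependent mouse was above every naive mouse, and in input the groups overlapped. How many of all genes have IP levels that do not overlap was not counted. The log2 ratio ran from -0.65 to 0.54 (median 0.06) in naive mice and from 0.64 to 2.74 (median 1.11) in dependent mice, a shift of 1.08 ± 0.18 (adjusted p = 0.000907). Cebpb rose in IP by 1.52 ± 0.18 (adjusted p = 1.96e-07), and its input change of 0.40 ± 0.13 (adjusted p = 0.0805) did not pass.

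Ddit4l (ENSMUSG00000046818, chromosome 3, 137621612 to 137628333, plus strand) encodes a stress-induced inhibitor of mTOR signalling. Its ratio had a lowest value of -0.03 and a median of 0.35 in naive mice and ran from 1.02 to 2.70 (median 1.55) in dependent mice, all above the highest naive mouse, a shift of 1.13 ± 0.17 (adjusted p = 0.000536). The fractions moved apart: medians were 54.3 CPM in naive and 76.7 CPM in dependent IP, and 36.3 and 27.7 CPM in input. The IP rise of 0.50 ± 0.11 passed its test (adjusted p = 0.00497) and the larger input change of -0.63 ± 0.22 (adjusted p = 0.128) did not, so the gene is tissue-weighted by size alone. Within batches the mean ratios differed by 1.10 in J, 1.73 in K and 0.83 in L.

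Crym (ENSMUSG00000030905, chromosome 7, 120186380 to 120202111, minus strand) encodes mu-crystallin, which binds thyroid hormone in the cytosol and marks a population of striatal astrocytes. In IP it ran from 2029.7 through 3520.0 to 5102 CPM in naive mice and from 354 through 1374 to 2428 CPM in dependent mice, with input medians of 567 and 449.9 CPM. The ratio ran from 2.07 to 3.17 (median 2.61) and from 0.24 to 2.06 (median 1.84), and all dependent mice lay below the naive range. The shift was -0.73 ± 0.12 (adjusted p = 0.000642), with a fall in IP of -1.16 ± 0.16 (adjusted p = 2.2e-06) and a fall in input of -0.47 ± 0.12 (adjusted p = 0.0187). The lowest ratio, 0.24, belonged to dependent mouse I15, which was also the lowest dependent mouse for Gabbr2, Fst, Tuba1a and Tubb2a.

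The unfolded protein response raises the folding capacity of the endoplasmic reticulum (ER) through factors such as XBP1 and ATF6 that act on chaperone promoters. Of the 21 genes tested from a list of that response and of the integrated stress response, 4 had a higher ratio (Calr, Hsp90b1, Pdia3 and Xbp1), 0 a lower one, and 17 did not pass. The share with a higher ratio was 0.215% over all tested genes. The median shift of the list was 0.23 against -0.02 over all tested genes, and 19 of its 21 shifts were above 0, against 46.8% of all shifts. Within fractions 14 of its genes rose in IP and 1 in input, against 3.21% and 1.4% of all genes tested.

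The upstream sequences of Calr and Hsp90b1 are shown because both genes rose in IP with no change that passed in input and both windows hold the ER stress response element, searched on both strands as CCAAT and CCACG with 9 bases of any kind between them. That motif is in 0.113% of 32851 windows of 250 bases upstream of a gene's start in the RefSeq promoter table (GRCm38.p6). Matches are in capitals and overlap no other motif searched. The Calr window is chr8:84846932-84847181 and the Hsp90b1 window chr10:86705445-86705694, both on the minus strand and printed 5′ to 3′ along the gene.
Calr: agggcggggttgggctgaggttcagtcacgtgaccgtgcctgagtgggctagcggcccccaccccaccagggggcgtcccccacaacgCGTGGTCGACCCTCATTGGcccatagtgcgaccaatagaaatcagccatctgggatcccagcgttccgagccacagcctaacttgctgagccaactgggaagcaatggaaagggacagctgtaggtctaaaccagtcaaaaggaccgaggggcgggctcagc
Hsp90b1: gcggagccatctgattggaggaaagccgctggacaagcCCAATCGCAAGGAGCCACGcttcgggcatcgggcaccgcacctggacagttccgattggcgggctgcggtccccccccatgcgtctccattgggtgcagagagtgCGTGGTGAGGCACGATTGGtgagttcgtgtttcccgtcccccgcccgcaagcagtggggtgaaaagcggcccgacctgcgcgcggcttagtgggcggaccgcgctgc
Calr holds 1 match, which begins 162 bases before the start, and Hsp90b1 holds 2, at 212 and 107 bases before it. Of the 59 called genes with a window in the table these 2 held the motif, counted per gene with any matching window, whereas the 0.113% is per window.

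Calr, a calcium-binding chaperone of the ER lumen, ran from 147 through 179.9 to 324 CPM in naive IP and from 199 through 373 to 698 CPM in dependent IP, with input medians of 145 and 235 CPM. Of the 16 dependent mice 14 had a ratio above the highest naive mouse. The shift was 0.58 ± 0.12 (adjusted p = 0.00483), with a rise of 0.83 ± 0.14 in IP and a change of 0.22 ± 0.08 (adjusted p = 0.168) in input. Hsp90b1 (GRP94, an ER chaperone of the heat shock protein family) went from a median ratio of 0.36 to 0.66, a shift of 0.52 ± 0.12 (adjusted p = 0.0263), and 11 dependent mice were above the naive range. Pdia3, a disulfide isomerase that works with calreticulin, had a shift of 0.46 ± 0.11 (adjusted p = 0.0429), with 5 dependent mice above the naive range. Xbp1 went from a median ratio of -0.98 to -0.27, a shift of 0.49 ± 0.12 (adjusted p = 0.0443). Hspa5 (BiP), the ER chaperone that holds the stress sensors inactive and a gene chosen after its values were seen, rose in IP by 0.51 ± 0.12, and its shift of 0.23 ± 0.12 (adjusted p = 0.615) did not pass.

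The chaperone shifts rested in part on batch I. Without it they were 0.35 for Calr (adjusted p = 0.051), 0.28 for Hsp90b1 (adjusted p = 0.161), 0.29 for Pdia3 (adjusted p = 0.257) and 0.46 for Xbp1 (adjusted p = 0.0909). In batch L the mean ratios of dependent and naive mice differed by 0.15 for Calr and 0.03 for Pdia3, against 0.51 and 0.57 in batch J. Without dependent mouse L25 Xbp1 was no longer called (adjusted p = 0.0585).

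Glutathione and thioredoxin form the main thiol buffers of the cell, and astrocytes make glutathione whose precursors neurons use. Of 22 Nrf2 and oxidative stress genes 3 had a higher ratio (Gclc, Txnrd1 and Gsr; 0.215% of all tested genes did), 0 a lower one, and 19 did not pass. Gclc, the catalytic subunit of the rate-limiting enzyme of glutathione synthesis (ENSMUSG00000032350, chromosome 9, 77754535 to 77794485, plus strand), had IP medians of 43.2 CPM in naive and 72.4 CPM in dependent mice and input medians of 43.1 and 47.1 CPM. Its ratio ran from -0.45 to 0.58 in naive mice and from 0.10 to 0.96 in dependent mice, a shift of 0.61 ± 0.11 (adjusted p = 0.00188), and the ranges overlapped, with 10 of 16 dependent mice above all naive mice. Txnrd1, cytosolic thioredoxin reductase, had a shift of 0.42 ± 0.08 (adjusted p = 0.00538), and 14 dependent mice were above the naive range of -0.28 to 0.49. Gsr, glutathione reductase, had a shift of 0.43 ± 0.09 (adjusted p = 0.0166). These genes rose in IP, by 0.70 ± 0.10, 0.50 ± 0.08 and 0.49 ± 0.09, and no input change of theirs passed the test. Without batch I the adjusted p was over the threshold for Txnrd1 (0.1) and Gsr (0.1), and without dependent mouse L25 for Gsr (0.105).

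The list's median shift was 0.09, and 12 of its 22 genes rose in IP and 5 in input, against 3.21% and 1.4% of all genes tested. Srxn1, which reduces overoxidised peroxiredoxins, rose by 0.86 ± 0.11 in IP and 0.46 ± 0.09 in input, and its shift of 0.38 ± 0.12 (adjusted p = 0.199) did not pass. Gstm1, a glutathione transferase chosen after its values were seen, rose by 0.71 ± 0.07 in IP and 0.76 ± 0.09 in input, with a shift of -0.06 ± 0.08 (adjusted p = 0.913). Outside the list Cbr3, a carbonyl reductase, had a higher ratio, with a shift of 0.58 ± 0.11 (adjusted p = 0.00252). So did 3 enzymes chosen after their values were seen: Gsto1, a glutathione transferase (0.56 ± 0.11 (adjusted p = 0.00568)), Ephx1, microsomal epoxide hydrolase (0.57 ± 0.13 (adjusted p = 0.024)), and Tkt, transketolase of the pentose phosphate pathway (0.32 ± 0.07 (adjusted p = 0.0209)).

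The Txnrd1 window is shown for its antioxidant response element core, searched as TGACNNNGC on both strands, the sequence that Nrf2 binds with small Maf proteins. It is chr10:82858956-82859205, plus strand, and 1 of 3 Txnrd1 windows in the table. The core is in 10.2% of all windows, in 8 of the 30 genes with a higher ratio that have a window and in 3 of the 29 with a lower one. A gene was counted if any of its windows matched, so the share of windows is not an even baseline for these genes.
Txnrd1: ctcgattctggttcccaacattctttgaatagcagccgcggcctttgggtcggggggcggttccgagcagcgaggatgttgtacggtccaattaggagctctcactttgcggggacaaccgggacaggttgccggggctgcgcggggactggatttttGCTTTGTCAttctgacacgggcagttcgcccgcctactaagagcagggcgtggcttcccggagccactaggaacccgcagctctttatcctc
The match, in capitals, begins 92 bases before the start.

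Called transporters of amino acids and taurine had shifts in both directions, and no list of such transporters stands behind them. Slc38a2 (SNAT2) is a neutral amino acid transporter induced by amino acid shortage (ENSMUSG00000022462, chromosome 15, 96687392 to 96699730, minus strand). It was depleted in the IP of naive mice, with ratios from -1.66 to -0.48 (median -1.24). In dependent mice the ratio ran from -0.72 to 0.42 (median -0.28), on both sides of 0. In IP its level ran from 9.71 through 15.9 to 25.1 CPM in naive mice and from 28.2 through 38.1 to 63.5 CPM in dependent mice. The shift was 0.73 ± 0.14 (adjusted p = 0.00394), with rises of 1.22 ± 0.16 in IP and 0.48 ± 0.13 in input. Slc6a6, the taurine transporter, went from a median ratio of -0.86 to -0.20, a shift of 0.57 ± 0.10 (adjusted p = 0.00142), with IP medians of 63.1 and 110.2 CPM and input medians of 119 and 116 CPM. Slc38a1 (SNAT1), which carries glutamine, had a shift of 0.58 ± 0.13 (adjusted p = 0.0234) and overlapping ranges. Slc43a2 (LAT4), a transporter of neutral amino acids chosen after its values were seen, went the other way, from a median ratio of 0.88 to 0.25, a shift of -0.68 ± 0.15 (adjusted p = 0.0193) that was not called without L25 (adjusted p = 0.0511). Without L25 Slc38a1 was not called (adjusted p = 0.0699).

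**Figure D2:**
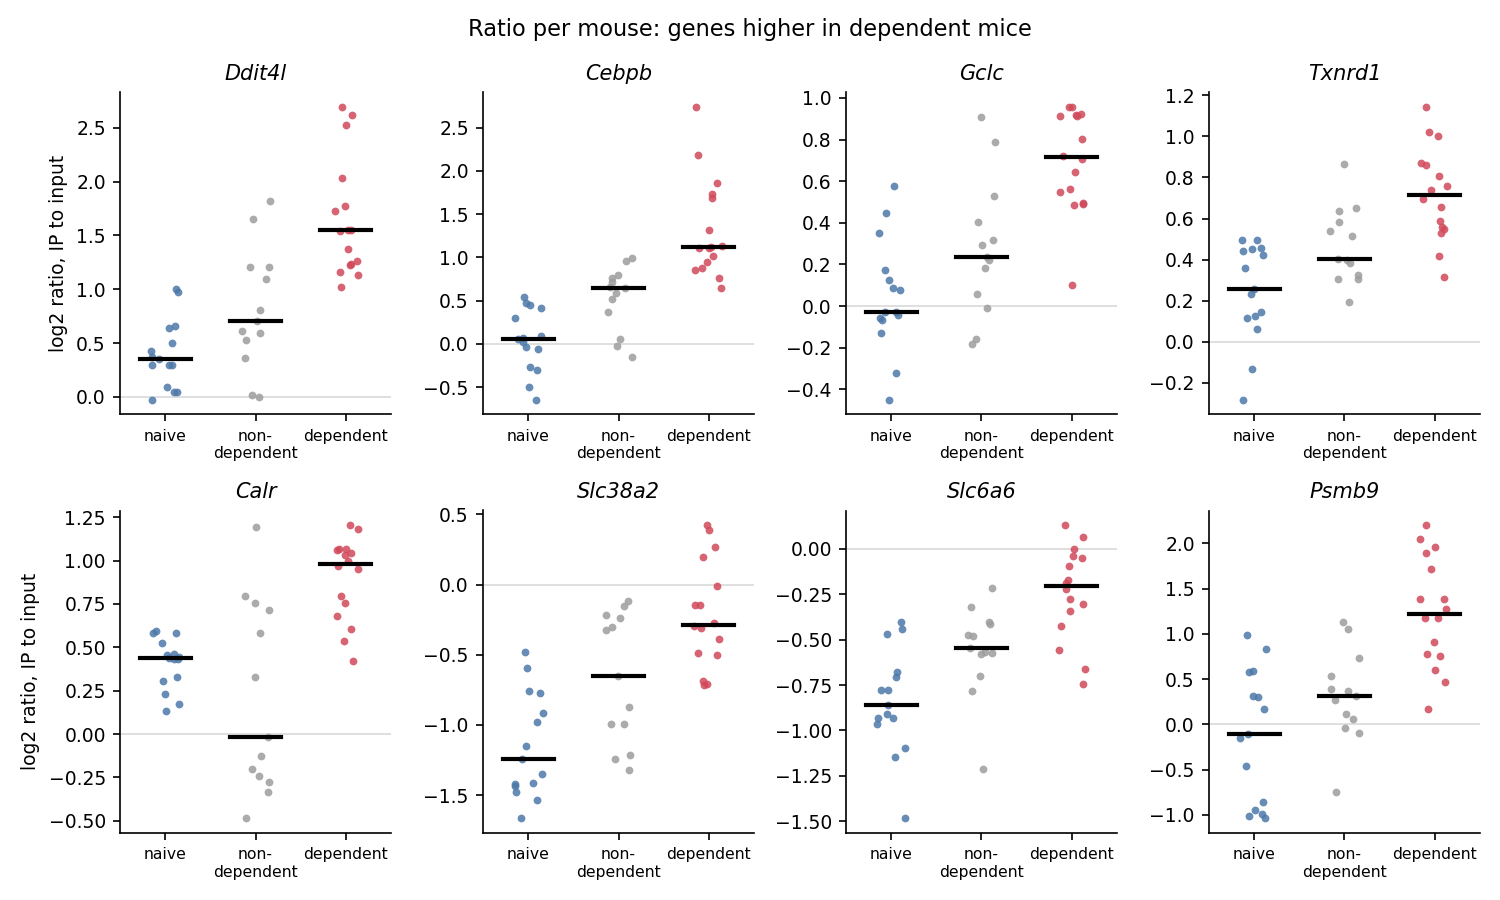
Log2 ratio of IP to input (vertical axis) of 8 genes with a higher ratio in dependent mice, 1 point per mouse (15 naive, 13 non-dependent, 16 dependent) and a line at the median. Dependent and naive mice do not overlap for Ddit4l and Cebpb, and the median of non-dependent mice lies between those of the other groups for each gene shown except Calr, whose non-dependent mice ran from -0.48 to -0.02 in batch I, which has no naive mice, and lay on average above naive mice in J and K.

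Interferon induces antiviral proteins, GTPases that attack the vacuoles of pathogens, the immunoproteasome and the molecules that present peptides. Of 20 antigen processing and MHC class I genes 2 had a higher ratio (Psmb9, Psmb8), of 9 MHC class II genes 2 (Cd74, H2-Ab1), of 31 type I interferon response genes 3 (Bst2, Xaf1, Ifitm3) and of 15 interferon-inducible GTPases with Irf1 2 (Igtp, Gbp2). In these lists 0 genes had a lower ratio and the other members did not pass, and 0.215% of all tested genes had a higher ratio. The median shifts of the lists were 0.21, 0.90, 0.43 and 0.82. Within fractions 14, 4, 15 and 7 of their genes rose in IP and 7, 2, 7 and 1 in input, against 3.21% and 1.4% of all genes tested.

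Psmb9, a catalytic subunit of the immunoproteasome (ENSMUSG00000096727, chromosome 17, 34181987 to 34187764, minus strand), ran from 2.18 through 4.78 to 14.6 CPM in naive IP and from 5.88 through 21.7 to 148 CPM in dependent IP, with input medians of 4.53 and 8.15 CPM. Its ratio ran from -1.04 to 0.99 in naive mice and from 0.17 to 2.20 in dependent mice, a shift of 1.38 ± 0.24 (adjusted p = 0.00119), and 10 of 16 dependent mice were above all naive mice. Psmb8, another such subunit, had a shift of 0.94 ± 0.22 (adjusted p = 0.0272) and rose in both fractions, by 2.13 ± 0.44 in IP and 1.19 ± 0.33 in input. Bst2 (tetherin), which holds budding viruses at the cell surface, went from a median ratio of 0.02 to 1.22, a shift of 1.26 ± 0.24 (adjusted p = 0.00245). Xaf1, an interferon-induced promoter of apoptosis, had a shift of 0.81 ± 0.18 (adjusted p = 0.0193), with 12 dependent mice above the naive range. Ifitm3, which blocks viral entry, rose in both fractions, by 1.65 ± 0.33 and 1.08 ± 0.29, with a shift of 0.51 ± 0.12 (adjusted p = 0.038).

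Igtp, a GTPase of the IRG family, had a shift of 1.23 ± 0.30 (adjusted p = 0.0377), on medians of 5.37 and 31 CPM in IP and 3.09 and 7.79 CPM in input. Its ratio ranges overlapped, with the highest naive mouse at 3.12 above the highest dependent mouse at 2.66, and all 16 dependent mice lay above the naive median. Gbp2, a guanylate-binding protein, had a shift of 1.59 ± 0.39 (adjusted p = 0.0406), with 6 dependent mice above the naive range.

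The upstream windows of the called genes with an interferon-stimulated response element, searched on both strands as 2 copies of GAAA with 2 bases of any kind between them, are shown for comparison with one another. The motif is in 2.98% of all windows, in 3 of the 30 genes with a higher ratio that have a window and in 0 of the 29 with a lower one. Here too the share is per window and the counts are per gene with any matching window. The windows are chr8:71537473-71537722 (Bst2, minus strand), chr3:142620413-142620662 (Gbp2, plus strand) and chr11:58199306-58199555 (Igtp, plus strand), with matches in capitals.
Bst2: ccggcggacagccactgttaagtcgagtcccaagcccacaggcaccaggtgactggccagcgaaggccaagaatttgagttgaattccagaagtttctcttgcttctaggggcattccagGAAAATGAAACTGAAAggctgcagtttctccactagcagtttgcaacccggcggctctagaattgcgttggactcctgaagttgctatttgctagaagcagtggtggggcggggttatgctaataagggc
Gbp2: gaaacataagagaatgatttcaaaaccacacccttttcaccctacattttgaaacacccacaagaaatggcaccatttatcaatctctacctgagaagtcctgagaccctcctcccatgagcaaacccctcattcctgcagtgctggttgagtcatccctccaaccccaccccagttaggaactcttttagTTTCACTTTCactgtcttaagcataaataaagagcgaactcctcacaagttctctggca
Igtp: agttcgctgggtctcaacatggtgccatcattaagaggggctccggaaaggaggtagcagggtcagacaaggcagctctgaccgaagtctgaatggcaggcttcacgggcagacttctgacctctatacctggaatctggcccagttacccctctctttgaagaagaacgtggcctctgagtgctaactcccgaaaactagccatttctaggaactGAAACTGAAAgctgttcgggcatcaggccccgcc
Bst2 holds 2 matches, 130 and 124 bases before the start, which overlap each other and a match to TTCNNNGAA, the gamma-activated site found in 7.02% of all windows. The match of Gbp2 begins 59 and that of Igtp 34 bases before the start.

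MHC class II genes were at low levels in naive mice. Cd74, the class II invariant chain, ran from 0 through 1.68 to 3.1 CPM in naive IP and from 1.05 through 15.4 to 319 CPM in dependent IP. Its ratio ran from -3.73 to 0.67 (median -0.85) and from -0.96 to 1.84 (median 0.77), a shift of 1.60 ± 0.35 (adjusted p = 0.015), and 9 dependent mice lay above the naive range. Cd74 was not called with dependent and naive mice only (adjusted p = 0.0885) or by limma (adjusted p = 0.0523). H2-Ab1, a class II beta chain, had a shift of 1.49 ± 0.34 (adjusted p = 0.0209), with 10 of 16 dependent mice above the naive range. Il18bp, the soluble inhibitor of interleukin 18, had the largest upward shift among named genes, 2.29 ± 0.52 (adjusted p = 0.0193), on medians of 0.575 and 2.1 CPM in IP and 1.57 and 1.67 CPM in input.

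Class I heavy chains moved in both fractions. H2-D1 rose by 1.87 ± 0.33 in IP and 1.44 ± 0.31 in input, and its shift of 0.36 ± 0.13 (adjusted p = 0.352) did not pass. H2-K1, chosen after its values were seen, rose by 1.41 ± 0.32 and 1.68 ± 0.36, with a shift of -0.25 ± 0.12 (adjusted p = 0.579). H2 genes have near-identical copies, so the split of reads between them is uncertain. Of the immune genes above, the adjusted p without dependent mouse L25 was over the threshold for Psmb8 (0.161), Ifitm3 (0.0511), Igtp (0.174), Gbp2 (0.0934), H2-Ab1 (0.0556) and Il18bp (0.116), and without batch I for Psmb8 (0.0835), Xaf1 (0.0785), Ifitm3 (0.138), Igtp (0.0909), Gbp2 (0.0538) and Il18bp (0.0781).

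Microglia, the resident immune cells of the brain, also express these genes, and the precipitate held their RNA. Of 18 microglia markers 1, the complement component C1qa, had a higher ratio, 17 did not pass, and 17 of the 18 shifts were above 0, with a median of 0.31. Among all tested genes 0.215% had a higher ratio and 46.8% of shifts were above 0. Their mean log2 ratio ran from -1.29 to -0.83 (median -1.04) in naive mice and from -1.27 to -0.18 (median -0.83) in dependent mice. Their summed IP level ran from 274 through 348 to 409 CPM in naive and from 263 through 351 to 1027 CPM in dependent mice, and their summed input level from 587 through 845 to 939.9 CPM and from 473 through 753 to 1489.9 CPM. The medians in IP were close and the upper end was higher in dependent mice, where I02 had 1027 CPM and J05 874 CPM. In the 88 libraries 0 of these markers were at 0. C1qa had a shift of 0.46 ± 0.11 (adjusted p = 0.0322), with no change that passed in either fraction, and Cx3cr1, the microglial fractalkine receptor, one of 0.16 ± 0.18 (adjusted p = 0.877) that did not pass. C1qa was also the called gene among 13 complement genes, whose median shift was 0.46, and was not called without L25 (adjusted p = 0.115). Of 16 T cell and monocyte markers 10 were abundant enough to test and 0 had a shift. The part of microglial RNA in the interferon and class II shifts was not tested.

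Transcription regulators moved in different ways. Jun, an AP-1 subunit (ENSMUSG00000052684, chromosome 4, 95049034 to 95052222, minus strand), had IP medians of 25.2 CPM in naive and 22.1 CPM in dependent mice and input medians of 16.2 and 27.8 CPM. It rose in input by 0.60 ± 0.13 (adjusted p = 0.00596), its IP change of -0.14 ± 0.10 (adjusted p = 0.563) did not pass, and the shift was -0.75 ± 0.14 (adjusted p = 0.00394). Id4, an inhibitor of basic helix-loop-helix factors, had IP medians of 1335 and 1301 CPM and fell in input by -0.46 ± 0.11, a shift of 0.48 ± 0.10 (adjusted p = 0.0154) that was not called with dependent and naive mice only (adjusted p = 0.0819) or by limma (adjusted p = 0.0515). It was the called gene among 20 astrocyte transcription factors, whose median shift was -0.20, with 17 below 0, against 10413 of all 19576 genes. Dusp1, a phosphatase of MAP kinases and a glucocorticoid target, rose in IP by 0.72 ± 0.15, a shift of 0.60 ± 0.15 (adjusted p = 0.0377) that was lost without L25 (adjusted p = 0.116). Of 14 C/EBP and AP-1 factors Cebpb and Jun passed, in opposite directions, and Fos had a shift of 0.66 ± 0.23 (adjusted p = 0.293) that did not.

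Receptors for GABA, glutamate and a neuropeptide had lower ratios. GABA-B receptors are obligate pairs of GABBR1 and GABBR2 through which astrocytes sense GABA, and mGluR3, the product of Grm3, is a main glutamate receptor of adult astrocytes. Gabbr2 (ENSMUSG00000039809, chromosome 4, 46662305 to 46991873, minus strand) ran from 194 through 258 to 411 CPM in naive IP and from 77.2 through 136 to 205 CPM in dependent IP, with input medians of 79 and 77.9 CPM. Its ratio ran from 1.12 to 2.41 (median 1.72) in naive mice and from -0.76 to 1.44 (median 0.92) in dependent mice, a shift of -0.92 ± 0.18 (adjusted p = 0.00374), and 11 dependent mice lay below the naive range. Gabbr1 had a shift of -0.31 ± 0.08 (adjusted p = 0.0483), with IP medians of 644 and 471 CPM and input medians of 418 and 415 CPM, and was not called without L25 (adjusted p = 0.115). Grm3 had a shift of -0.38 ± 0.07 (adjusted p = 0.00483), and 11 dependent mice lay below the naive range of 1.61 to 2.20. Adcyap1r1, the PACAP receptor PAC1, had a shift of -0.58 ± 0.10 (adjusted p = 0.00153), and 13 dependent mice were below the naive range of 1.95 to 2.87.

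These receptors fell in IP, by -0.90 ± 0.12 (Gabbr2), -0.41 ± 0.08 (Gabbr1), -0.53 ± 0.08 (Grm3) and -0.41 ± 0.08 (Adcyap1r1), and no input change of theirs passed the test. Of 22 astrocyte G protein-coupled receptors 3 had a lower ratio, 0 a higher one and 19 did not pass, with a median shift of -0.15, while 6 fell and 1 rose in IP. Among all tested genes 0.215% had a lower ratio, and 2.29% fell and 3.21% rose in IP. Of 19 glutamate and GABA handling genes 3 had a lower and 1, Slc38a1, a higher ratio, with a median of -0.19. In both lists the 3 lower genes were Gabbr2, Grm3 and Gabbr1. For comparison with both lists, the 22 astrocyte markers had a median shift of -0.14. The glutamate transporters Slc1a2 (GLT-1) and Slc1a3 (GLAST) had shifts of -0.19 ± 0.07 (adjusted p = 0.292) and -0.18 ± 0.06 (adjusted p = 0.289) that did not pass.

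Tubulins form microtubules, and Tuba1a, Tubb2a and Tubb2b had lower ratios, while the other 10 of 13 tubulins did not pass. A lower ratio was called for 0.215% of all tested genes. Tuba1a (ENSMUSG00000072235, chromosome 15, 98949837 to 98953703, minus strand) had IP medians of 460.0 CPM in naive and 357 CPM in dependent mice and input medians of 427 and 414 CPM, a shift of -0.44 ± 0.07 (adjusted p = 0.000642), and 12 dependent mice lay below the naive range. Tubb2a had a shift of -0.52 ± 0.09 (adjusted p = 0.000907), and 13 dependent mice lay below the naive range of 0.37 to 1.20. Tubb2b had a shift of -0.44 ± 0.10 (adjusted p = 0.0263), which was lost without L25 (adjusted p = 0.0934). Tubulin paralogs are similar in sequence, and how shared reads were counted is not given in the sources used here. The median shift of the list was -0.15, against -0.14 for the astrocyte markers.

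Of 25 fatty acid and lipoprotein genes Fabp5 and Hadha had a lower and Scd1 a higher ratio, against 0.215% in each direction over all tested genes. The list median was -0.14, as was that of the astrocyte markers. Fabp5, a fatty acid binding protein (ENSMUSG00000027533, chromosome 3, 10012548 to 10016607, plus strand), had IP medians of 669 and 358 CPM and input medians of 241 and 215 CPM, with ratios from 0.45 to 1.76 (median 1.50) in naive mice and from 0.05 to 1.20 (median 0.56) in dependent mice. Its shift was -0.74 ± 0.12 (adjusted p = 0.000759), and all 16 dependent mice lay below the naive median. Hadha, a subunit of the mitochondrial enzyme of fatty acid oxidation, fell in IP by -0.39 ± 0.06, a shift of -0.39 ± 0.09 (adjusted p = 0.0319). Scd1, the desaturase that makes oleate, rose by 1.07 ± 0.14 in IP and 0.64 ± 0.11 in input, a shift of 0.41 ± 0.09 (adjusted p = 0.015). Fabp7, the brain fatty acid binding protein and a gene chosen after its values were seen, fell by -1.48 ± 0.14 in IP and -1.15 ± 0.18 in input, and its shift of -0.34 ± 0.13 (adjusted p = 0.371) did not pass.

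**Figure D3:**
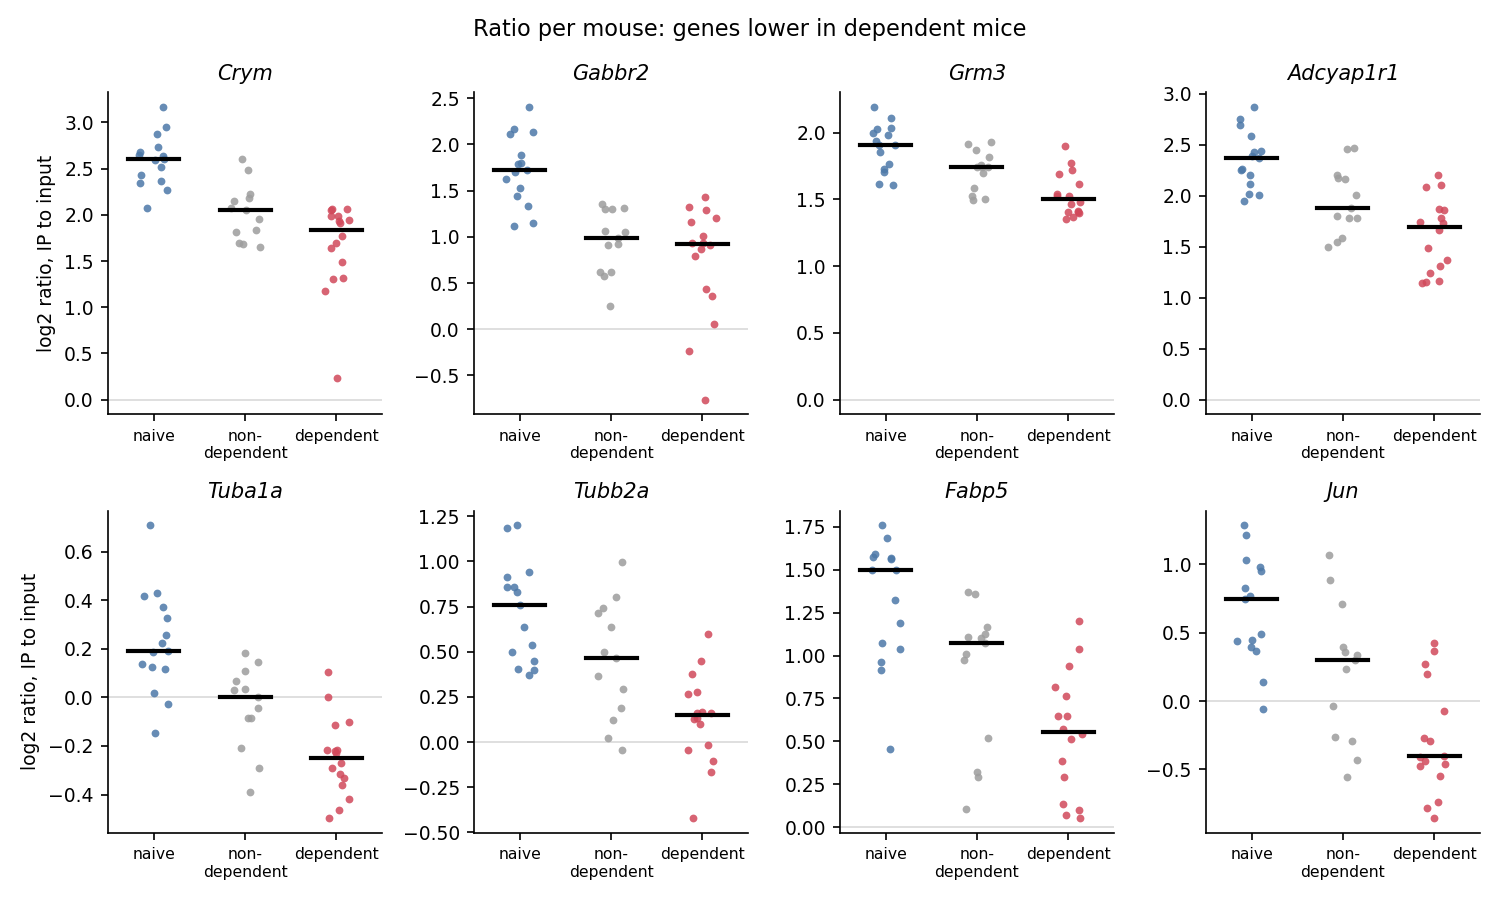
Log2 ratio of IP to input (vertical axis) of 8 genes with a lower ratio in dependent mice, 1 point per mouse (15 naive, 13 non-dependent, 16 dependent) and a line at the median. Dependent and naive mice do not overlap for Crym, and the median of non-dependent mice lies between those of the other groups for each gene shown.

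Other genes among the 12 smallest p in each direction had more scattered functions. Those with a higher ratio were Hddc2, a nucleotide phosphatase (0.59 ± 0.10 (adjusted p = 0.000642), 13 of 16 dependent mice above the naive range), Synpo2, an actin-binding protein (1.40 ± 0.24 (adjusted p = 0.000907), 2 above it), and Mir124-2hg, the host transcript of a neuronal microRNA (0.64 ± 0.11 (adjusted p = 0.00153), 5 above it). Those with a lower ratio were Pik3ip1, an inhibitor of PI3 kinase (-0.51 ± 0.09 (adjusted p = 0.000907)), Pnrc2, a nuclear receptor coactivator (-0.53 ± 0.10 (adjusted p = 0.00245)), Kbtbd11, a kelch repeat protein (-0.43 ± 0.08 (adjusted p = 0.00245)), and Syt11, a synaptotagmin (-0.35 ± 0.07 (adjusted p = 0.00245)). For Syt11 15 of 16 dependent mice lay below the naive range of 0.45 to 0.87.

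Among the 11 tissue-weighted rises Jun, Slc20a1, Morn5, Riiad1, Sox4 and the predicted gene Gm17455 rose in input, and among the 4 tissue-weighted falls Id4 and the predicted gene Gm26645 fell in input. Apart from Jun and Id4 these were chosen after their values were seen. Slc20a1, a phosphate importer, rose in input by 0.32 ± 0.08, a shift of -0.52 ± 0.11 (adjusted p = 0.00925), and all 16 dependent mice had a ratio below the naive median. Sox4, a factor of progenitor cells, rose in both fractions but more in input, by 0.80 ± 0.15 against 0.36 ± 0.10, a shift of -0.45 ± 0.10 (adjusted p = 0.0265). Morn5 rose in input by 1.24 ± 0.27 and Riiad1 by 0.79 ± 0.21, on input medians of 1.44 and 3.23 CPM and of 15.7 and 25.1 CPM. Without L25 the shift was not called for Riiad1 (0.17), Sox4 (0.0855) and Gm17455 (0.11).

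Ependymal and choroid plexus cells line the ventricles near the punch. Of their 10 markers 0 had a shift (median -0.02, 5 above and 5 below 0), while 3 rose in IP and 2 in input, against 3.21% and 1.4% of all genes tested. Their summed level in input ran from 32 through 53 to 134 CPM in naive and from 22.3 through 99.7 to 158 CPM in dependent mice, and in IP from 33.9 through 62.3 to 147 CPM and from 29.2 through 119 to 196 CPM. The median was higher in dependent mice in both fractions, and the part of such cells in the input rises was not tested.

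The largest falls in ratio among named genes lay at low levels. Zfp808, a zinc finger gene, had a shift of -2.04 ± 0.52 (adjusted p = 0.0483) on IP medians of 1.27 and 0.925 CPM. Echdc3, related to enoyl-CoA hydratases, had a shift of -1.53 ± 0.35 (adjusted p = 0.0234) and Ccdc8, a coiled-coil protein, one of -1.50 ± 0.35 (adjusted p = 0.0234), with input medians of 0.731 and 1.63 CPM and of 0.567 and 1.06 CPM. Fst, the activin antagonist follistatin, had a shift of -1.16 ± 0.26 (adjusted p = 0.019) and fell in IP by -1.79 ± 0.38. For Echdc3 the difference in batch J was 0.23, opposite in sign to those in K (-2.33) and L (-2.25). Without L25 the adjusted p was over the threshold for Zfp808 (0.265), Echdc3 (0.0755) and Ccdc8 (0.101), and by limma for Echdc3 (0.463), Zfp808 (0.156) and Fst (0.124).

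**Figure D4:**
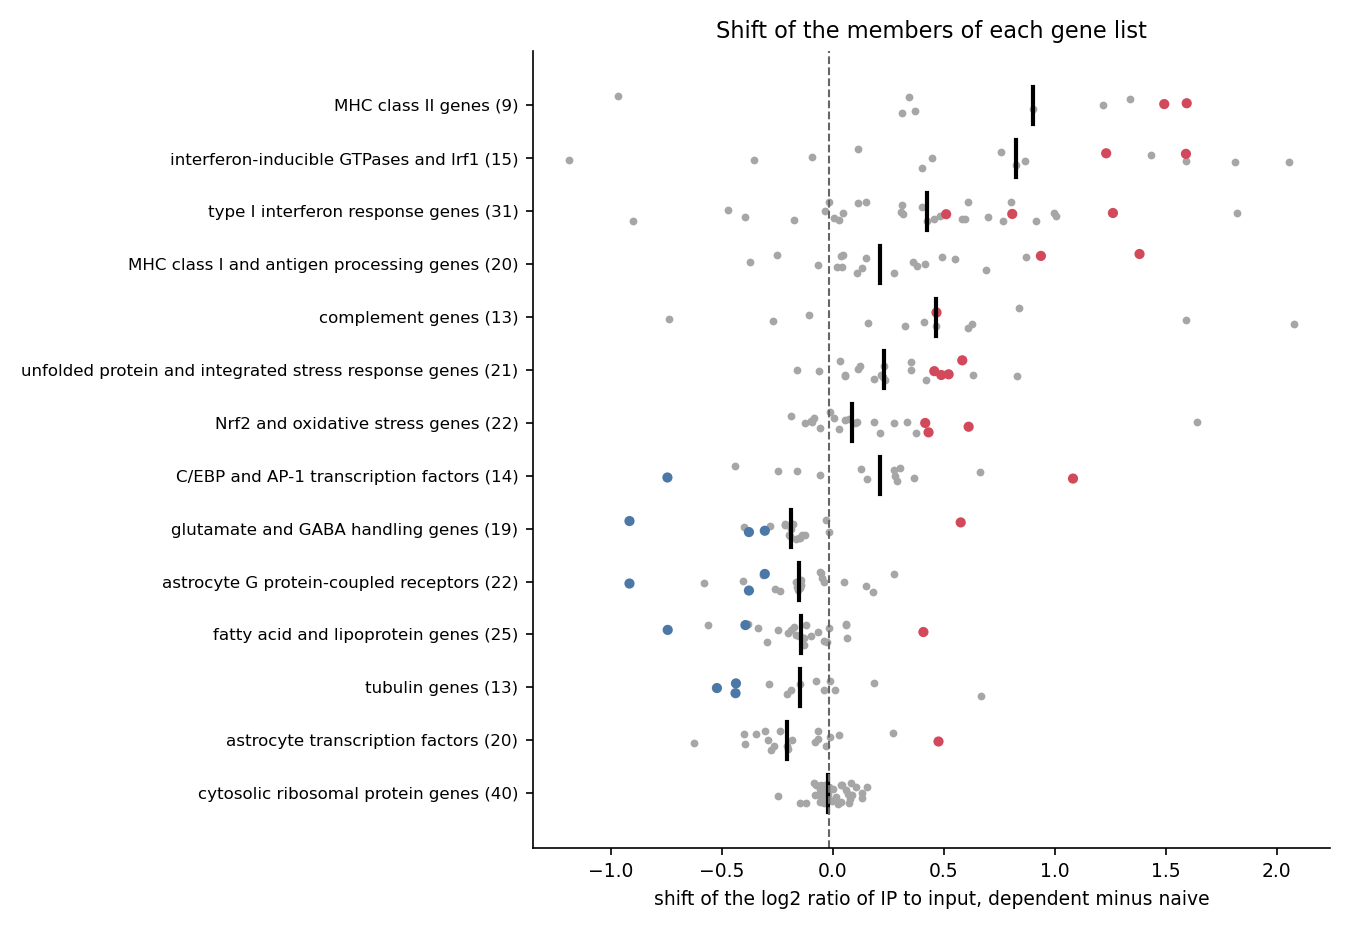
Shift of the log2 ratio between dependent and naive mice (horizontal axis) of each tested member of 14 gene lists, with called genes in color and other genes in grey, and a line at each list's median. MHC class II genes (0.90) and interferon-inducible GTPases (0.82) have the highest medians, and cytosolic ribosomal protein genes (-0.02) lie at that of all tested genes. Astrocyte markers, not shown, have a median of -0.14.

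Most genes that responded within a fraction had no called shift. Of the 973 genes called in IP and tested for the ratio 66 had one, as did 15 of the 416 called in input. Both fractions were called for 205 genes, all 205 in the same direction, and 8 of these had a shift. Gfap, the intermediate filament of reactive astrocytes, rose by 0.97 ± 0.19 in IP and 1.05 ± 0.20 in input, with a shift of -0.11 ± 0.11 (adjusted p = 0.855). Rgs4, which shortens the signals of G proteins, fell by -1.01 ± 0.12 and -0.93 ± 0.12, with a shift of -0.07 ± 0.09 (adjusted p = 0.884) (both genes were chosen after their values were seen). Of 11 pan-reactive astrocyte genes 0 had a shift, with a median of -0.10. A shift that did not pass does not show that the fractions changed alike.

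Genes with a lower ratio were mostly enriched in the IP of naive mice. Of the 42 genes with a lower ratio 39 had a naive median ratio above 0, and the median of these naive medians over the 42 was 1.45, against 24 of the 42 genes with a higher ratio and a median of 0.09. Over all tested genes the median shift was -0.17 for the 1077 genes with a mean naive ratio above 2, of which 13 had a lower and 1 a higher ratio. It was -0.07 for the 1641 genes between 1 and 2 (13 lower and 4 higher called) and -0.01 for the 5806 between 0 and 1 (14 lower and 20 higher). For the 7881 between -1 and 0 it was 0.01 (1 lower and 14 higher), and for the 3171 below -1 it was -0.0012 (1 lower and 3 higher). The naive ratio is also subtracted in the shift, so a high naive ratio and a low shift are tied in part by construction. Genes were also grouped by the ratio in non-dependent mice instead, added after seeing the data. The median shift was then -0.15 above 2 (6 lower and 1 higher called) and -0.04 between 1 and 2 (15 lower and 6 higher). Between 0 and 1 it was 0.01 (17 lower and 22 higher) and between -1 and 0 it was -0.0036 (1 lower and 12 higher). Below -1 it was -0.07 (3 lower and 1 higher), so that it was below 0 at both ends.

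Estimates for astrocyte markers were mostly below 0. Of 22 markers 0 had a shift, and 21 of the 22 estimates were below 0, with a median of -0.14. Among all 19576 tested genes 10413 estimates were below 0. Their mean log2 ratio ran from 2.90 to 3.35 (median 3.16) in naive, from 2.85 to 3.19 (median 3.05) in non-dependent and from 2.81 to 3.20 (median 2.94) in dependent mice. Their summed IP level ran from 39064 through 41786 to 44477 CPM in naive and from 32612 through 39595 to 45491 CPM in dependent mice, and their summed input level from 4174 through 4651 to 5595 CPM and from 4404 through 5224 to 5916 CPM. The 15 neuron markers had a median shift of -0.11, with 13 below 0 and 0 called, and their mean ratio ran from -1.46 to -1.13 (median -1.22) in naive and from -1.56 to -0.88 (median -1.36) in dependent mice.

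With the mean astrocyte marker ratio of each mouse as a covariate 46 genes were called, 31 higher and 15 lower, among them 25 of the 42 higher and 14 of the 42 lower genes. In that fit Gabbr2 (-1.04, adjusted p = 0.00371), Crym (-0.76, adjusted p = 0.00224), Tuba1a, Tubb2a, Fabp5 and Adcyap1r1 passed, and Grm3 (-0.33, adjusted p = 0.0668), Gabbr1, Jun, Tubb2b and Hadha did not. Among the higher genes Cebpb (1.07, adjusted p = 0.00502), Calr (0.68, adjusted p = 0.00371) and Gclc passed, and Slc38a2 (0.64, adjusted p = 0.0669), Cd74 (1.37, adjusted p = 0.159) and H2-Ab1 (1.33, adjusted p = 0.168) did not.

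**Figure D5:**
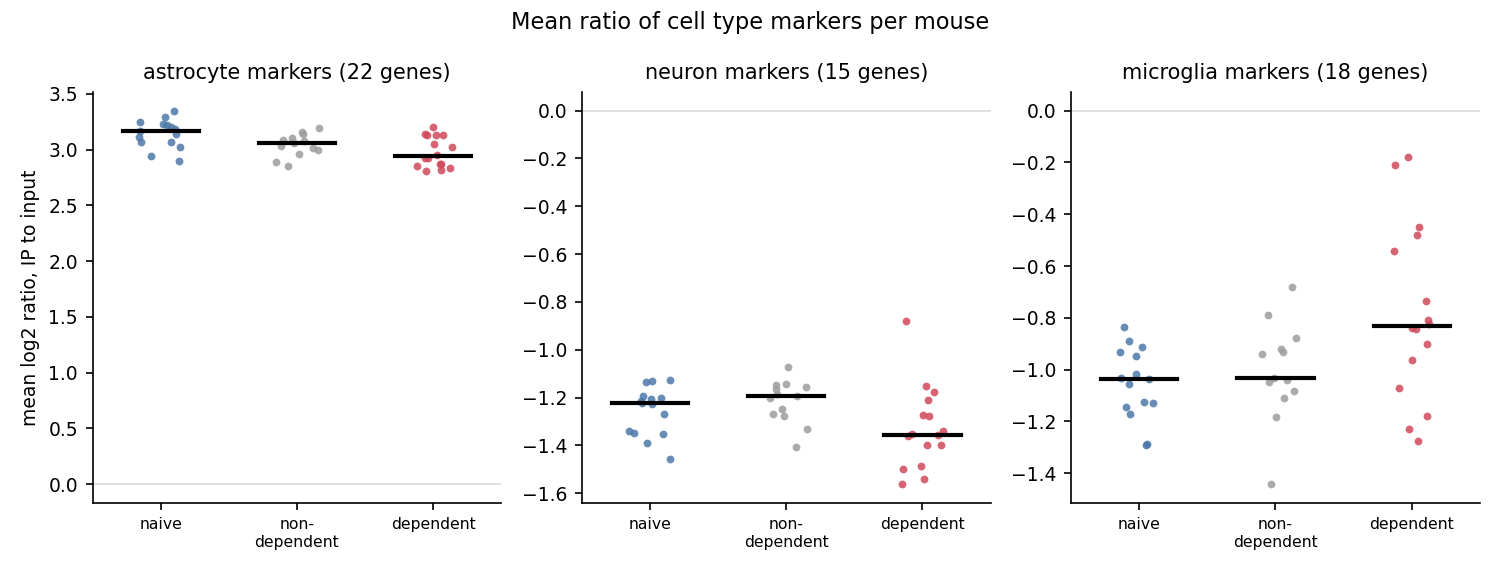
Mean log2 ratio of IP to input (vertical axis) over the astrocyte (22 genes), neuron (15 genes) and microglia markers (18 genes), 1 point per mouse (15 naive, 13 non-dependent, 16 dependent) and a line at the median. The astrocyte medians are 3.16 in naive and 2.94 in dependent mice, and the highest microglia value, -0.18, is that of a dependent mouse.

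Non-dependent mice, which drank without CIE, give another reference. Between non-dependent and naive mice 0 genes had a shift (0% called, edgeR quasi-likelihood test), and 1094 were at an unadjusted p under 0.05. That comparison shares its naive mice with the one above. For the 42 genes with a higher ratio in dependent mice the median shift was 0.58 in dependent and 0.25 in non-dependent mice, and for the 42 with a lower ratio -0.54 and -0.36. The shift of Cebpb was 1.08 in dependent and 0.16 in non-dependent mice, that of Calr 0.58 and -0.17, and that of Gabbr2 -0.92 and -0.71. For Calr the sign of the non-dependent value was opposite to that within batches: the mean ratio was 0.57 in non-dependent against 0.33 in naive mice of J and 0.89 against 0.50 in K, while in batch I it was -0.24 in the 7 non-dependent and 1.04 in the 7 dependent mice. Among the 84 genes this held also for Pdia3 (fitted -0.08, against 0.16 in J and 0.39 in K).

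For sex, 0 genes differed in the shift between females and males (0% called, edgeR quasi-likelihood test, smallest adjusted p 0.201), with 964 at an unadjusted p under 0.05, and limma on the log2 ratios called 0, with 859. The median shift of the 42 higher genes was 0.55 in females and 0.63 in males, and that of the 42 lower genes -0.57 and -0.49.

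Within batches all 42 higher genes and 38 of the 42 lower genes had a difference of mean ratios in the same direction in J, K and L. The median differences were 0.69, 0.55 and 0.58 for the higher and -0.56, -0.49 and -0.56 for the lower genes. Without batch I 18 of the 42 higher and 27 of the 42 lower genes were still called, and of the described genes, beside the chaperone, thiol and immune genes listed above, C1qa, Ccdc8, Dusp1, Ephx1, Fst, Hadha, Riiad1, Scd1, Slc38a1, Tkt, Tubb2b and Zfp808 were not. Because these mice also chose the genes, the shared direction adds no support. Without dependent mouse L25 the paired fit called 50 genes, 48 of them among the 84, and all 84 kept their direction in each alternative that gave them a value. Limma on the log2 ratios called 51 of the 84. Of the described genes it did not call Hsp90b1, Pdia3, Xbp1, Slc38a1, Ifitm3, Igtp, Gbp2, Cd74, H2-Ab1 and Il18bp. Nor did it call C1qa, Id4, Dusp1, Gabbr1, Tubb2b, Riiad1, Zfp808, Echdc3 and Fst. With dependent and naive mice only 16 of the 42 higher and 16 of the 42 lower genes were still called, and of the genes described above those were Cebpb, Ddit4l, Hddc2, Synpo2, Mir124-2hg, Calr, Gclc, Cbr3, Gsto1, Slc38a2, Slc6a6, Psmb9, Bst2, H2-Ab1, Crym, Gabbr2, Grm3, Adcyap1r1, Tuba1a, Tubb2a, Fabp5, Jun, Pik3ip1, Pnrc2, Kbtbd11, Syt11, Slc20a1, Echdc3 and Gm26645.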

How the data were processed

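RNA from nucleus accumbens was measured in 88 libraries of 44 mice, 1 IP and 1 input library each (SMART-Seq, per the labels' protocols). The authors deposited whole-number counts per gene, with FastQC 0.11.9, Trimmomatic 0.39 and STAR 2.7.10b on GRCm38 named per the submitters' processing notes, and the counting program, annotation and strand setting are not given in the sources used here. From the counts, genes passing filterByExpr (minimum count 10, total 15) were normalized by TMM and fitted with edgeR 4.0.16 (R 4.3.3, quasi-likelihood, robust, dispersion from 5% of genes): a term per mouse, and fraction by treatment, sex and batch. IP and input alone were each filtered and normalized separately and fitted with treatment, sex and batch. In those fits the dispersion was estimated before the fit, unlike in the paired fit. Per-mouse ratios used log2 CPM with a prior count of 2. p-values were Benjamini-Hochberg adjusted over all genes tested. The pairing comes from the mouse names: IP and input deviations of 1 mouse correlated at a median of 0.19 (over 0.1 in 40 of 44 mice), against -0.01 between different mice of a batch. Alternatives used limma 3.58.1 and DESeq2 1.42.0, other scalings, filters, samples and covariates. The scripts were tested on simulated data.

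Named genes were the 12 smallest p and the 4 largest shifts in each direction (mean of at least 1 CPM, symbols other than predicted genes), for each list at most the 4 lowest p among its members, and defining markers. The members, lists and rule were chosen with earlier results of these data known. Of 832 list members 828 matched 1 gene. The labels name a mouse for each library, so p-values measure the spread between mice. Promoter sequences come from RefSeq (GRCm38.p6), where 59 of the 84 called genes had a window. Of 55471 features 241, with 0.00249% of counts, were not in the annotation used for coordinates.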

Additional observations from a re-analysis of the deposited data

Results flagged for a closer look

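Dependent female mice C17 and G22, of batches C and G, have both libraries but no naive mouse in their batch and entered no comparison. Their log2 ratios, here from CPM without TMM and with each mouse centred on its median, were set against the range of the 15 naive mice, and genes whose ratio lay outside that range in both mice are given. Of the 42 genes with a higher ratio in the dependent mice of the fit, 11 lay above all naive mice in both, and of the 42 with a lower ratio 9 lay below all naive mice in both, against 0.608% and 0.725% of all tested genes. The same 15 naive mice served both to choose these genes and to set the range. The shares of all tested genes are therefore not an even baseline for the chosen genes. For this reason the counts are not an independent test of the shifts. Among the 11 were Cebpb, Ddit4l, Hddc2, Txnrd1, Cbr3, Hsp90b1 and C1qa, and among the 9 Gabbr2, Jun, Tuba1a, Pik3ip1, Hadha and Syt11. The ratios were 1.72 and 1.07 for Cebpb (naive range -0.61 to 0.59), 1.94 and 2.03 for Ddit4l (naive range 0.01 to 1.05) and 1.21 and 0.72 for Gabbr2 (naive range 1.23 to 2.51).

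Taken singly, C17 was above the naive range for 20 and G22 for 18 of the 42 higher genes, against 5.77% and 4.60% of all tested genes. C17 was below the naive range for 12 and G22 for 22 of the 42 lower genes, against 5.18% and 6.82% of all tested genes. These counts rest on the same naive mice and have the same limit. Treatment and batch cannot be told apart in these mice.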

How the results depend on the processing

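All 84 genes kept the direction of their shift in 20 alternative settings (19 for Gm38366, which DESeq2 gave no adjusted p) and in 31 fits that left out 1 mouse each. Single-gene values were pooled over the 84 genes and the named genes that were not called. Of these values 9762 kept their side of the threshold, 1758 lost the call, 35 gained it and 0 reversed. Only a called gene can lose its call, so the pooled counts overstate how stable the 84 calls were. Ddit4l was called in 20 of 20 settings and in 31 of 31 fits that left out 1 mouse, and Zfp808 in 4 of 20 and 0 of 31. The count of 84 itself depended on the settings. It was 144 with DESeq2 (61 higher, 83 lower, with 3416 genes given no adjusted p), 55 with limma on the log2 ratios, 34 with dependent and naive mice only, 9 with batches J and K only, 17 without batch J, 33 without batch K, 17 without batch L, 204 with no batch term and 46 with the astrocyte marker covariate. Without the replicate block of the mouse 14 genes were called, all 14 among the 84. Leaving out 1 mouse in turn, by limma, gave 30 (without dependent mouse L25) to 70 genes (without dependent mouse I02). Paired fits added after seeing the data gave 50 genes without L25 and 58 without naive mouse J08. Size factors of the DESeq2 kind gave 87 genes (36 higher, 51 lower) and moved the median shift of all genes from -0.02 to -0.03. With dependent and naive mice only, 27 genes were astrocyte-weighted (69 in the fit of the report), 7 tissue-weighted (15), and 13 genes of the lists were called (31). Within IP no low-count filter gave 1486 genes (974). Within input DESeq2 gave 650 and dependent and naive mice only 215 (416). The cause of these differences was not tested, beyond the smaller number of mice or batches where these were left out.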
